A study of Bos taurus with 24 samples.

Results

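Mural granulosa cells line the wall of the ovarian follicle, and the comparison described here set those of late antral bovine follicles (late_MGC, 5 libraries) against those of early antral follicles (early_MGC, 5 libraries), over all genes. These 10 libraries were chosen by the names of their columns in the deposited count table, out of 24 libraries of the series. The others, 5 late_CC and 5 early_CC libraries of cumulus cells of the same stages and 4 secondary_GC libraries, of granulosa cells of the secondary stage, entered the shared fit, and the cumulus libraries also a test of where the stage effect of mural cells differed. All were RNA-seq libraries of total RNA, made with a low-input full-length cDNA kit and a transposase kit. The labels give no treatment, breed, age or animal for any group. They do not say whether replicates came from separate animals, so p-values measure only the spread between these samples. The study asked whether mural cells of the late stage can still send new transzonal projections to an oocyte stripped of them, as those of the early stage can, and set this beside their transcriptomes.

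When a follicle forms its fluid-filled antrum, granulosa cells divide into cumulus cells, which stay around the oocyte, and mural cells, which rest on the basement membrane. As the follicle grows under follicle-stimulating hormone (FSH), mural cells take up hormone production: they make inhibin, a dimer of the alpha subunit INHA with a beta subunit INHBA or INHBB, and they convert steroids into oestradiol with the aromatase CYP19A1. Transzonal projections are thin, actin-rich or microtubule-containing processes that resemble filopodia, cross the zona pellucida and carry gap junctions to the oocyte, and in the mouse the unconventional myosin MYO10 is needed for their number.

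Total counts ran from 16547420 to 28757749 in late_MGC and from 8379801 to 21455169 in early_MGC, and mitochondrial genes held 10.3% to 21.5% of the counts in late_MGC and 12.5% to 36.5% in early_MGC, with the highest share in the shallowest library, early_MGC 4. Levels are given in CPM, the count divided by the library's total and multiplied by 1000000, and libraries of late_MGC are numbered by column order. The library in the column named Cmur_lat__C5, here late_MGC 3, stood apart from its group. Its mean correlation of log2 CPM with the other 4 late_MGC libraries was 0.846, while that of the others with their group was 0.938 to 0.948. Every result therefore rests on a pair of fits, with and without it.

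The granulosa identity of the libraries was read from 8 markers, and late_MGC 3 went against its label. The FSH receptor FSHR was at 346, 309.8, 10.6, 302 and 381 CPM in late_MGC 1 to 5, against 286, 200.5, 237, 212 and 366 CPM in early_MGC 1 to 5. It was thus high in 9 libraries and low in late_MGC 3. AMH, the anti-Mullerian hormone made by granulosa cells, was at 2.73 CPM in late_MGC 3, against 148 to 250.5 CPM in the other late_MGC libraries and 129.8 to 238 CPM in early_MGC. The 8 granulosa markers summed to 213 CPM in late_MGC 3, to 8090 to 11940 CPM in the other late_MGC libraries and to 2669 to 4047 CPM in early_MGC. Of 9 markers of the ovarian surface epithelium, the sum was 5150 CPM in late_MGC 3, 15.4 to 32.2 CPM in the other late_MGC libraries and 52.9 to 237 CPM in early_MGC. The keratin KRT8 alone gave 2829 CPM and KRT18 2137 CPM in late_MGC 3, but EPCAM and KRT7, which also define epithelia, had no count in any of the 10 libraries. Of 15 matched markers of theca and stroma, the sum was 2762 CPM in late_MGC 3, 334 to 520 CPM in the other late_MGC libraries and 300 to 726 CPM in early_MGC, with the matrix genes LUM at 1621 CPM, POSTN at 588 CPM and DCN at 276 CPM in late_MGC 3. Other members did not move with them. INSL3, a hormone of theca cells, was at 1.88 CPM in late_MGC 3, against 190 to 349 CPM in the other late_MGC libraries and 69.2 to 156 CPM in early_MGC. OGN and TCF21 were at most 0.482 CPM in late_MGC 3, NR2F2 was at 14.4 CPM there against 12.03 to 15.3 CPM in the other late_MGC libraries, and CYP17A1, the androgen-forming enzyme of theca, was at 0.161 CPM there and had no count in the other 9 mural libraries. Behind the similar sums of the stages, single members of this list differed in opposite directions. POSTN was at 49.98 to 68.6 CPM in late_MGC without late_MGC 3, against 8.53 to 18.1 CPM in early_MGC. MYH11 was at 17.7 to 105.9 CPM in late_MGC without late_MGC 3 and 19.9 CPM in late_MGC 3, against 106.9 to 385.5 CPM in early_MGC. Markers of oocytes summed to at most 3.54 CPM and those of blood and immune cells to at most 8.35 CPM in any mural library. Among the 11 endothelial markers the sum was 2.09 to 6.10 CPM in late_MGC without late_MGC 3, 26.3 CPM in late_MGC 3 and 25.2 to 46.4 CPM in early_MGC, while TIE1 and EGFL7 had no count. Single genes carried these sums, FLT1 with 20.1 to 37.6 CPM in early_MGC and CLDN5 with 16.7 CPM in late_MGC 3, and PECAM1, CDH5, EMCN and ESAM were at most 0.121 CPM in any mural library. Without FLT1 the other 10 summed to 0.765 to 2.78 CPM in late_MGC without late_MGC 3, 25.6 CPM in late_MGC 3 and 5.06 to 10.4 CPM in early_MGC. The granulosa transcription factor FOXL2 had at most 0.926 CPM in each of the 10 libraries, also in those with high FSHR and AMH. Whether so low a count reflects its true level was not tested. The part of these cell types in the results was not tested, and in such bulk samples fewer cells of a type and less RNA per cell cannot be told apart.

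**Figure D1:**
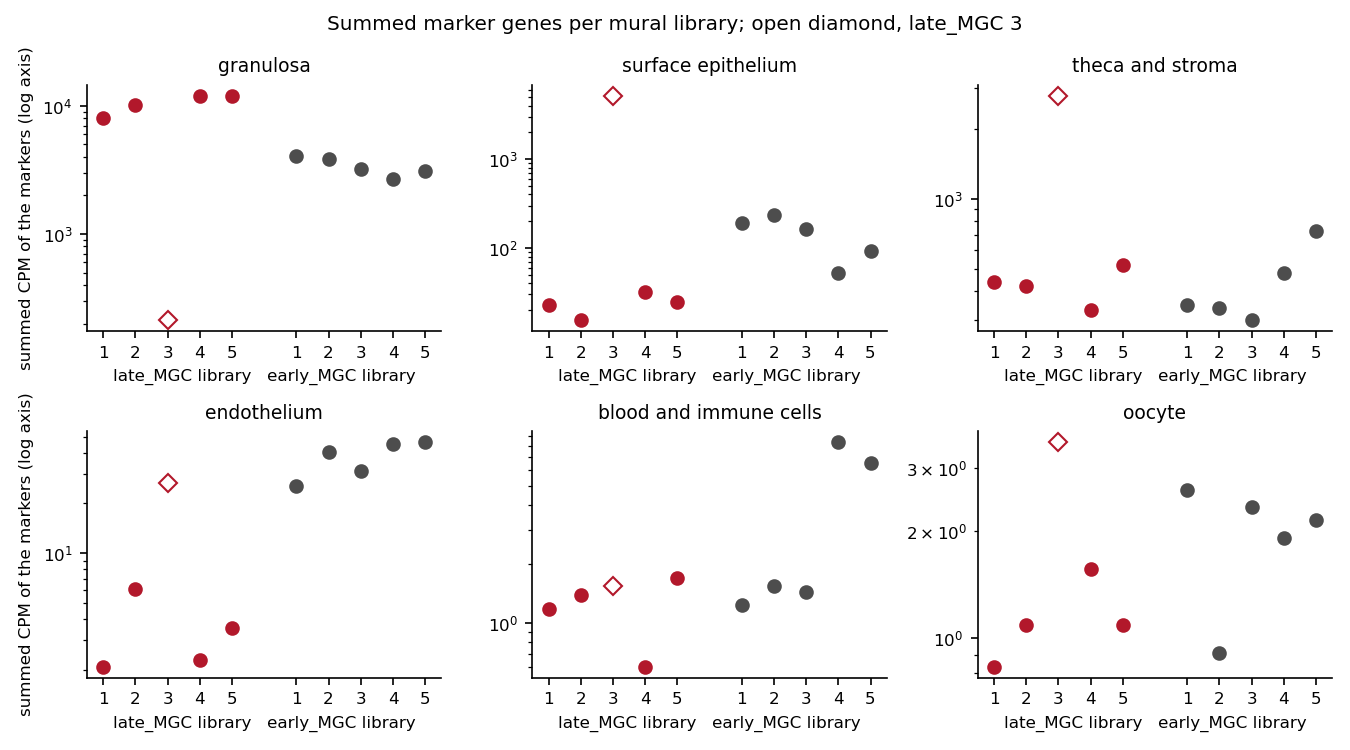
Summed CPM of the marker genes of 6 cell types in each of the 10 mural libraries, on log axes, with late_MGC in red on the left, early_MGC in grey on the right and late_MGC 3 as an open diamond. In late_MGC 3 the granulosa sum is 213 CPM, below all other mural libraries, and the surface epithelium sum is 5150 CPM, above all of them.

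Of 14298 genes tested with all libraries, 2725 (19.1%) passed an adjusted p of 0.05 by edgeR's quasi-likelihood test with Benjamini-Hochberg adjustment, 1396 higher (9.76%) and 1329 lower (9.3%) in late_MGC. Among these, 522 rose and 1041 fell at least 2-fold. Without late_MGC 3, 3396 of 14103 genes passed (24.1%), 1654 higher (11.7%) and 1742 lower (12.4%), of which 570 rose and 1410 fell at least 2-fold. Both fits called 2367 genes with the same sign (16.8%), 1170 higher (8.3%) and 1197 lower (8.49%). These are 86.9% of the calls with all libraries and 69.7% of those without late_MGC 3. A further 358 calls were made only with late_MGC 3 and 1029 only without it. The biological coefficient of variation, the spread between replicates, was 55.4% in late_MGC, 28.3% in late_MGC without late_MGC 3 and 36.9% in early_MGC. For 5665 genes (40.2%) the 95% interval of the log2 fold change without late_MGC 3 lay within 1 unit of 0. The median log2 fold change of all genes tested was 0.05 with all libraries and -0.004 without late_MGC 3. Below, "rose" and "fell" are used of genes called in both fits, log2 fold changes are late_MGC over early_MGC with their standard error after the ± sign, and a plain value is from the fit without late_MGC 3.

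**Figure D2:**
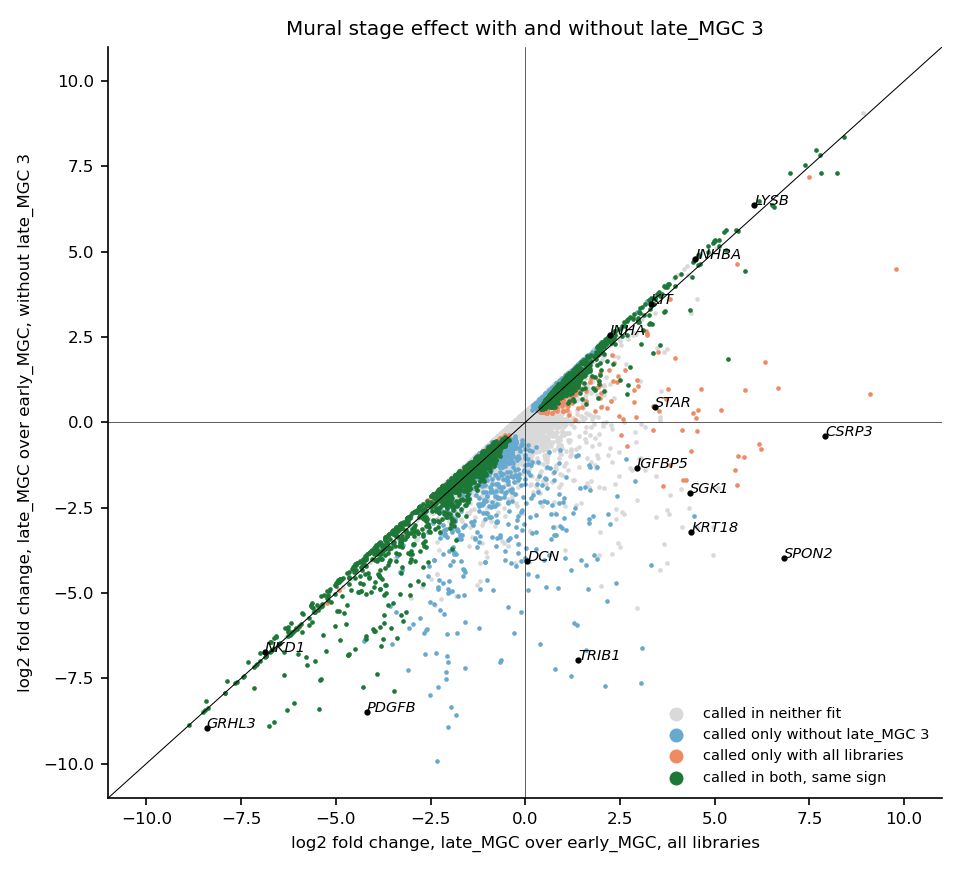
Log2 fold change of late_MGC over early_MGC for each tested gene with all libraries (horizontal axis) and without late_MGC 3 (vertical axis), coloured by the fits that called it. Points far below the diagonal, such as CSRP3, SPON2, KRT18 and SGK1, are genes whose late_MGC level with all libraries came from late_MGC 3, while INHA, INHBA, NKD1 and GRHL3 lie near the diagonal.

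The inhibin and activin genes INHA, INHBA and INHBB were among those that rose. INHA, INHBA and FST are also among the granulosa markers above, so their levels are no separate evidence on the identity of the libraries. INHA (ENSBTAG00000009972, chromosome 2, 107501784 to 107504801 in ARS-UCD1.2) was at 1846, 2223, 26.3, 2320 and 2664 CPM in late_MGC 1 to 5, against 511, 518, 414, 299 and 375 CPM in early_MGC 1 to 5. In 4 late_MGC libraries it was above every early_MGC library, and in late_MGC 3 below every one. Its log2 fold change was 2.56 ± 0.25 without late_MGC 3 (adjusted p = 4.1e-08) and 2.24 ± 0.59 with it (adjusted p = 0.01). INHBA, the beta A subunit shared by inhibin A and activin A (ENSBTAG00000048508, chromosome 4, 79288772 to 79302445), was at 726, 1296, 89.8, 2517 and 2572 CPM in late_MGC 1 to 5, against 109, 104, 63.7, 40.7 and 30.2 CPM in early_MGC 1 to 5. Here late_MGC 3 lay within the range of early_MGC. The fold change of INHBA was 4.79 ± 0.70 without late_MGC 3 (adjusted p = 5.0e-05) and 4.49 ± 0.82 with it (adjusted p = 6.3e-04), and its name rests on a positional overlap of only 0.556. INHBB, the beta B subunit, rose too, with 152, 289, 114, 308 and 353 CPM in late_MGC 1 to 5, against 58.7, 98.5, 49.2, 28.8 and 16.8 CPM in early_MGC 1 to 5, by 2.57 ± 0.53 (adjusted p = 0.0012). All 5 late_MGC libraries were above all 5 early_MGC libraries for INHBB. The activin-binding protein FST was at 5008 to 6564 CPM in late_MGC 1, 2, 4 and 5 and 83.02 CPM in late_MGC 3, against 1970 to 2930 CPM in early_MGC. It was called only without late_MGC 3, at 1.41 ± 0.25 (adjusted p = 1.6e-04), against 1.09 ± 0.55 (adjusted p = 0.18) with it. Another activin antagonist, FSTL3, showed the opposite sign at -2.35 ± 0.36 (adjusted p = 4.3e-05), with 2.75 to 6.89 CPM in late_MGC 1, 2, 4 and 5 and 198 CPM in late_MGC 3, against 12.4 to 40.1 CPM in early_MGC, and was not called with late_MGC 3. TGFB3, a TGF-beta ligand, fell by 3.56 ± 0.89 on the log2 scale (adjusted p = 0.0047). The receptor TGFBR2 had no count in late_MGC 1, 2, 4 and 5, against 0.247 to 1.79 CPM in early_MGC. It was called only without late_MGC 3, and its mean over all 5 late_MGC libraries was 2.55 CPM. Of 14 tested genes of the inhibin, activin and TGF-beta list, 3 rose and 1 fell in both fits, beside 8.3% and 8.49% of all genes. The list's median log2 fold change was 0.29 without late_MGC 3 and 0.94 with it.

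**Figure D3:**
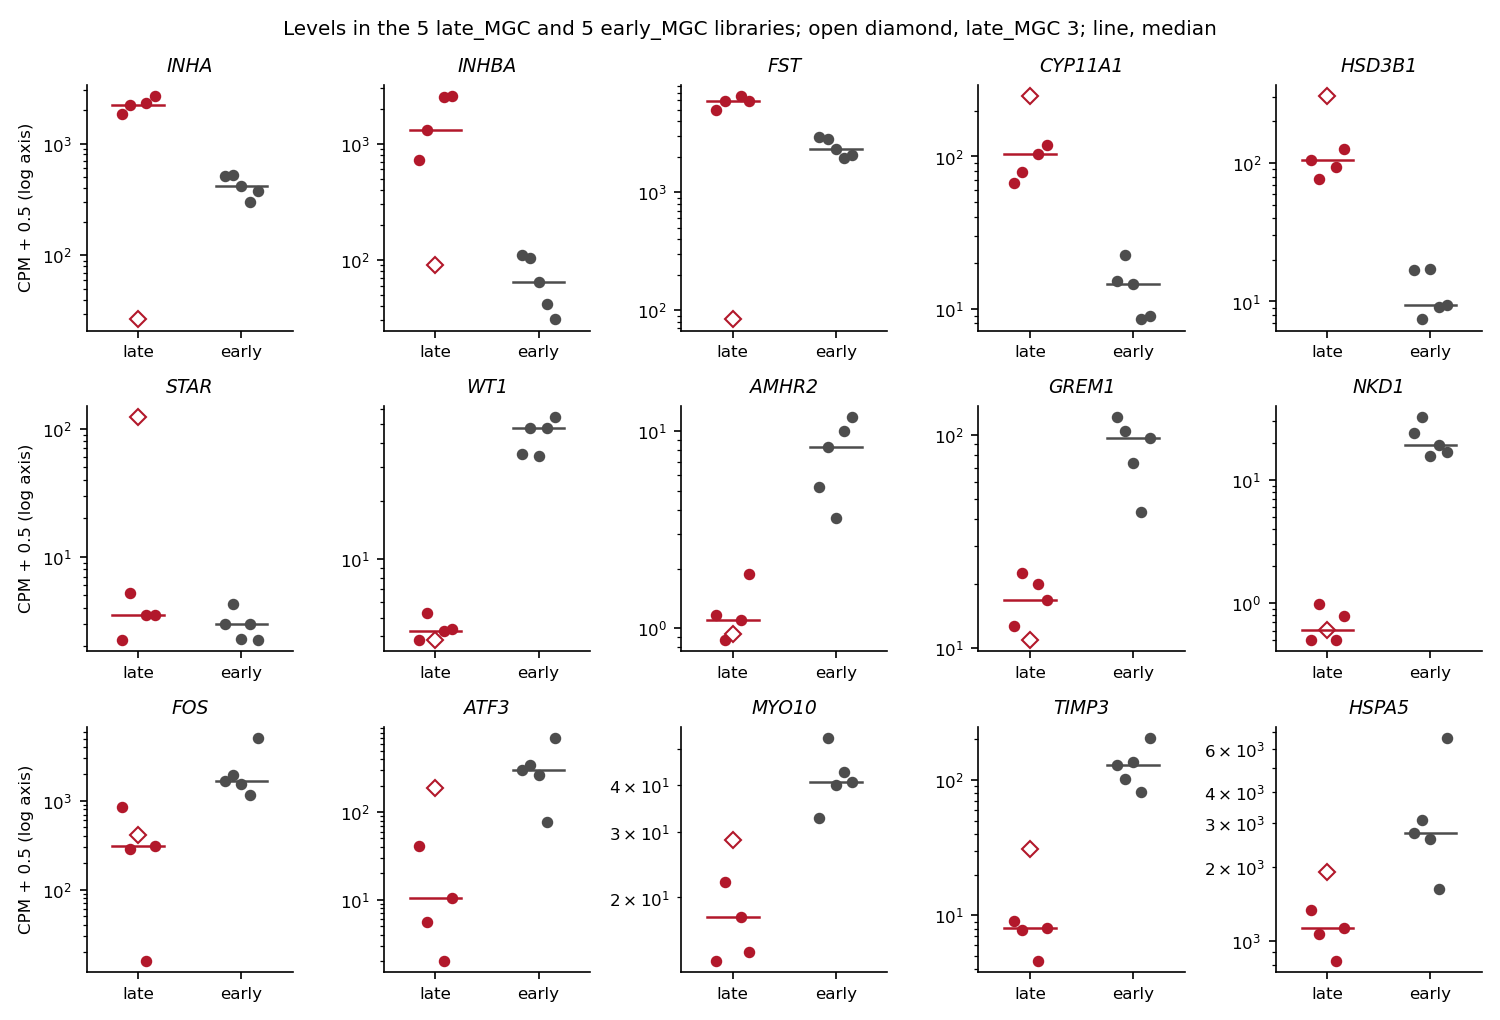
CPM plus 0.5 (log axes) of 15 genes in each library, with the 5 late_MGC libraries on the left in red and the 5 early_MGC libraries on the right in grey; lines are medians and the open diamond is late_MGC 3. INHA, INHBA and FST are high in 4 late_MGC libraries and low in late_MGC 3, CYP11A1 and HSD3B1 are high in all 5, STAR is high in late_MGC 3 alone, and WT1, AMHR2, GREM1, NKD1, MYO10 and TIMP3 are lower in all 5 late_MGC libraries than in any early_MGC library.

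The enzymes CYP11A1 and HSD3B1, which lead from cholesterol to progesterone, rose, with every late_MGC library above every early_MGC library. CYP11A1, the mitochondrial side-chain cleavage enzyme (ENSBTAG00000006934, chromosome 21, 34328403 to 34342900), was at 66.4, 78.1, 249.6, 104 and 118 CPM in late_MGC 1 to 5, against 14.8, 22.2, 13.96, 7.995 and 8.48 CPM in early_MGC 1 to 5. HSD3B1, which turns pregnenolone into progesterone (ENSBTAG00000006769, chromosome 3, 23706733 to 23717051), was at 104, 75.96, 306, 93.4 and 126 CPM in late_MGC 1 to 5, against 16.4, 6.92, 16.7, 8.59 and 8.95 CPM in early_MGC 1 to 5. For both genes late_MGC 3 was the highest library. The log2 fold change of CYP11A1 was 2.90 ± 0.38 without late_MGC 3 (adjusted p = 8.8e-06) and 3.26 ± 0.42 with it (adjusted p = 1.1e-05), and that of HSD3B1 was 3.25 ± 0.44 without late_MGC 3 (adjusted p = 1.6e-05) and 3.66 ± 0.48 with it (adjusted p = 1.6e-05). FDX1, the electron donor of CYP11A1, rose by 0.77 ± 0.17 (adjusted p = 0.0021). STAR, which brings cholesterol into mitochondria, was at 1.74, 4.71, 123, 3.005 and 3.04 CPM in late_MGC 1 to 5, against 2.47, 3.78, 1.8, 2.51 and 1.73 CPM in early_MGC 1 to 5. Its call with all libraries (3.43 ± 0.84, adjusted p = 0.0065) came from late_MGC 3, since without it the value was 0.46 ± 0.31 (adjusted p = 0.31). HSD17B1, which reduces oestrone to oestradiol, was at 695 to 1169 CPM in late_MGC 1, 2, 4 and 5 and 8.25 CPM in late_MGC 3, against 111 to 338 CPM in early_MGC, at 2.24 ± 0.41 (adjusted p = 2.9e-04) without late_MGC 3 and 1.92 ± 0.69 (adjusted p = 0.056) with it. CYP19A1 was at 15.9, 26.6, 0.107, 28.9 and 29.04 CPM in late_MGC 1 to 5, against 16.1, 17.6, 17.7, 8.83 and 9.97 CPM in early_MGC 1 to 5, and it was not called in either fit, at 0.96 ± 0.38 without late_MGC 3 (adjusted p = 0.069) and 0.64 ± 0.65 with it (adjusted p = 0.54). Of 15 tested steroidogenic genes 4 rose (26.7%, against 8.3% of all genes) and none fell in both fits (8.49% of all genes), and in each fit alone 6 were higher and none lower. The median of the list was 0.69 in both fits.

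A part of the cholesterol supply genes rose. In both fits 8 of 29 tested genes of cholesterol synthesis and uptake rose (27.6%, against 8.3% of all genes) and 1 fell (3.45% against 8.49%), and without late_MGC 3 alone 11 were higher and 3 lower, with a median of 0.62. Among those that rose were the synthesis enzymes LSS (1.69 ± 0.21), FDPS (1.08 ± 0.29) and DHCR7 (1.18 ± 0.30), the lipoprotein receptor SCARB1 (1.197 ± 0.20), the lysosomal cholesterol transporter NPC1 (1.44 ± 0.24), the sterol sensor SCAP (1.33 ± 0.32) and NSDHL (0.79 ± 0.23). With late_MGC 3 kept and another single library left out, 4 to 8 were higher. In the mural groups alone 3 were higher, and 15 in that fit without late_MGC 3. SOAT1, which stores cholesterol as esters, fell by 0.66 ± 0.25 (adjusted p = 0.05), with 62.3 to 179.8 CPM in late_MGC and 224 to 346 CPM in early_MGC. With late_MGC 3 kept and another single library left out, the calls of DHCR7, FDPS, NSDHL, SOAT1 and LPL, below, each ended in at least 1 fit, with a highest adjusted p of 0.099, 0.16, 0.14, 0.088 and 0.081. In the list of fatty acid handling, the carrier FABP3 rose the most, with 296, 108, 56.6, 205 and 189.9 CPM in late_MGC 1 to 5, against 22.8, 19.4, 21.03, 15.3 and 8.72 CPM in early_MGC 1 to 5. Its log2 fold change was 3.66 ± 0.46 without late_MGC 3 (adjusted p = 6.3e-06) and 3.42 ± 0.50 with it (adjusted p = 5.2e-05). The lipoprotein lipase LPL rose by 1.78 ± 0.31 (adjusted p = 1.8e-04). PLIN2, which coats lipid droplets, was at 39.2 to 56.7 CPM in late_MGC 1, 2, 4 and 5 and 690.5 CPM in late_MGC 3, against 103 to 361 CPM in early_MGC, and was called only without late_MGC 3, at -1.83 ± 0.29 (adjusted p = 5.5e-05).

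Receptors for hormones changed unevenly. The anti-Mullerian hormone receptor AMHR2, whose name rests on an overlap of 0.693, was at 0.661, 0.363, 0.428, 0.601 and 1.38 CPM in late_MGC 1 to 5, against 4.69, 7.83, 3.12, 9.55 and 11.4 CPM in early_MGC 1 to 5. No late_MGC library reached the lowest early_MGC library, and the gene fell by 3.10 ± 0.48 on the log2 scale without late_MGC 3 (adjusted p = 3.2e-05) and by 3.26 ± 0.46 with it (adjusted p = 2.1e-05). Its ligand AMH was not called in either fit, at 0.33 ± 0.28 without late_MGC 3 (adjusted p = 0.41) and 0.02 ± 0.57 with it (adjusted p = 0.99). The insulin-like growth factor receptor IGF1R rose by 1.70 ± 0.32 (adjusted p = 3.8e-04), with 13.1 to 23.3 CPM in late_MGC and 4.14 to 12.5 CPM in early_MGC, and the progesterone receptor PGR by 1.35 ± 0.29 (adjusted p = 0.0013). FSHR was at 0.52 ± 0.19 (adjusted p = 0.042) without late_MGC 3 and at 0.21 ± 0.46 (adjusted p = 0.8) with it. LHCGR, the receptor for the ovulatory hormone LH, had at most 0.161 CPM in any late_MGC library and at most 0.185 CPM in any early_MGC library, and was too low to test. A count of 0, as in late_MGC 4, allows up to 0.180 CPM, which covers counting error only.

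Among the transcription factors of the gonadal lineage, WT1 showed the clearest fall. WT1 (ENSBTAG00000047268, chromosome 15, 63118358 to 63168835), a zinc finger factor of early gonads and immature granulosa cells, was at 3.34, 4.77, 3.32, 3.79 and 3.89 CPM in late_MGC 1 to 5, against 34.5, 47.1, 33.9, 47.3 and 54.1 CPM in early_MGC 1 to 5. The highest late_MGC library was far below the lowest early_MGC library. Its log2 fold change was -3.33 ± 0.31 without late_MGC 3 (adjusted p = 2.9e-08) and -3.40 ± 0.30 with it (adjusted p = 2.7e-08), with late_MGC 3 at the level of the others. NR5A2, a nuclear receptor needed for ovulation in the mouse, was at 360.3, 549, 239, 592 and 467 CPM in late_MGC 1 to 5, against 175, 193, 138, 160.5 and 145 CPM in early_MGC 1 to 5. It rose by 1.72 ± 0.26 (adjusted p = 3.0e-05), and the groups did not overlap. The homeobox gene EMX2 fell by 0.90 ± 0.27 (adjusted p = 0.016) and TOX by 0.97 ± 0.31 (adjusted p = 0.024; 0.077 without early_MGC 5 and with late_MGC 3), while MEIS2 rose by 1.72 ± 0.51 (adjusted p = 0.016). LHX2, counted as risen at 4.003 ± 1.16 (adjusted p = 0.013), had at most 0.759 CPM in any late_MGC library and 2 counts in all of early_MGC. Of 25 tested lineage factors 3 rose (12% against 8.3% of all genes) and 5 fell (20% against 8.49%) in both fits, with a median of -0.13.

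The Wnt inhibitors NKD1, AXIN2 and SFRP4 and the ligands WNT6 and WNT11 fell, and 3 other genes of the pathway rose. NKD1, a cytoplasmic inhibitor of Dishevelled that is itself a Wnt target (ENSBTAG00000012295, chromosome 18, 18940443 to 19034788), was at 0, 0.483, 0.107, 0 and 0.285 CPM in late_MGC 1 to 5, against 23.5, 31.96, 15.2, 18.9 and 16.4 CPM in early_MGC 1 to 5. It was close to 0 in all 5 late_MGC libraries. Over late_MGC 1, 2, 4 and 5 it had 14 counts and in early_MGC 1600, a 123-fold higher pooled CPM in early_MGC (95% exact interval 73.2 to 226, counting error only). The fitted log2 fold change was -6.74 ± 0.60 without late_MGC 3 (adjusted p = 1.9e-08) and -6.87 ± 0.59 with it (adjusted p = 2.7e-08). AXIN2, another target and inhibitor of the pathway, was at 1.63, 3.2, 0.75, 1.68 and 1.33 CPM in late_MGC 1 to 5, against 15.7, 20.7, 15.2, 9.43 and 19.7 CPM in early_MGC 1 to 5. All late_MGC values were below all early_MGC values, and AXIN2 fell by 2.90 ± 0.33 on the log2 scale (adjusted p = 5.5e-07). The secreted inhibitor SFRP4 was at 0.12 to 1.15 CPM in late_MGC and 6.92 to 29.2 CPM in early_MGC, a log2 fold change of -4.52 ± 0.55 (adjusted p = 4.4e-06). The ligand WNT6 was at 0.321 to 4.65 CPM in late_MGC and 26.6 to 73.5 CPM in early_MGC, a log2 fold change of -3.83 ± 0.42 (adjusted p = 5.1e-07). Neither gene overlapped between the groups. WNT11 fell by 0.99 ± 0.35 (adjusted p = 0.042), a call that ended without late_MGC 4 or early_MGC 3 (highest adjusted p 0.065). Other members rose. DKK3, a secreted glycoprotein of the Dickkopf family, was at 14.2, 19.3, 57.9, 23.1 and 20.4 CPM in late_MGC 1 to 5, against 3.21, 3.71, 1.68, 0.239 and 2.1 CPM in early_MGC 1 to 5, and rose by 3.26 ± 0.38 (adjusted p = 6.9e-07). The transducer CTNNB1 rose by 0.81 ± 0.17 (adjusted p = 9.5e-04) and GSK3B by 0.54 ± 0.19 (adjusted p = 0.04). Of 27 tested genes of the pathway 3 rose (11.1%, against 8.3% of all genes) and 5 fell (18.5% against 8.49%) in both fits, with a median of -0.39.

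In the pathway of bone morphogenetic proteins (BMPs), the secreted antagonist GREM1 (ENSBTAG00000050495, chromosome 10, 29964364 to 29978686) was at 12.1, 21.9, 10.3, 19.4 and 16.2 CPM in late_MGC 1 to 5, against 121, 103, 73.1, 42.8 and 95.9 CPM in early_MGC 1 to 5. The highest late_MGC library was below the lowest early_MGC library. GREM1 fell by 2.18 ± 0.23 without late_MGC 3 (adjusted p = 1.5e-07) and by 2.33 ± 0.24 with it (adjusted p = 2.9e-07). ID1, a classic BMP target, was at 25.7, 3.81, 15.3, 1.56 and 3.61 CPM in late_MGC 1 to 5, against 54.5, 50.9, 58.4, 25.4 and 188 CPM in early_MGC 1 to 5, and its log2 fold change was -2.81 ± 0.64 without late_MGC 3 (adjusted p = 0.003) and -2.69 ± 0.57 with it (adjusted p = 0.0022). Late_MGC 1 overlapped the lowest early_MGC library for ID1. The type I receptor ACVR1 rose by 1.202 ± 0.37 (adjusted p = 0.019), with 2.57 to 21 CPM in late_MGC and 0.959 to 4.01 CPM in early_MGC, late_MGC 3 being the highest. Of 14 tested BMP genes 1 rose (7.14% against 8.3% of all genes) and 2 fell (14.3% against 8.49%) in both fits. In the Notch pathway, HEYL, a target of the receptors, was at 0.348, 0.242, 2.84, 0.36 and 0.19 CPM in late_MGC 1 to 5, against 8.21, 10.98, 10.4, 10.6 and 13.7 CPM in early_MGC 1 to 5. It fell by 5.05 ± 0.42 (adjusted p = 3.7e-09), or 3.73 ± 0.53 with late_MGC 3 (adjusted p = 2.8e-05). HES1, another target, rose by 0.995 ± 0.31 (adjusted p = 0.019), with 4.33 to 48.1 CPM in late_MGC and 2.7 to 6.33 CPM in early_MGC. These were the only Notch genes of 15 tested that were called in both fits with the same sign (6.67% in each direction, against 8.3% and 8.49% of all genes).

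In both fits 5 of 17 tested angiogenic ligands fell (29.4%, against 8.49% of all genes), 1 rose (5.88% against 8.3%) and 11 were not called. In a fit of the mural groups alone 3 were lower and none higher, and in that fit without late_MGC 3 5 were lower and 1 higher. The platelet-derived growth factor subunit PDGFB (ENSBTAG00000021697, chromosome 5, 110665525 to 110687430) was at 0.0696, 0.121, 10.98, 0.12 and 0.0949 CPM in late_MGC 1 to 5, against 43.6, 41.3, 35.7, 43.6 and 36.9 CPM in early_MGC 1 to 5. It was below 0.2 CPM in 4 late_MGC libraries and intermediate in late_MGC 3. Its pooled CPM was 411-fold higher in early_MGC than in late_MGC without late_MGC 3 (95% exact interval 208 to 953, counting error only). The fitted log2 fold change was -8.48 ± 0.73 without late_MGC 3 (adjusted p = 2.8e-08) and -4.19 ± 0.99 with it (adjusted p = 0.0059). PDGFA was at 0.626, 0.363, 3.59, 1.44 and 0.285 CPM in late_MGC 1 to 5, against 21.2, 33.4, 20.4, 27.3 and 16.3 CPM in early_MGC 1 to 5, and fell by 5.02 ± 0.43 (adjusted p = 5.7e-09). FLT1, a receptor for vascular endothelial growth factors, was at 1.32, 3.32, 0.75, 1.08 and 1.38 CPM in late_MGC 1 to 5, against 20.1, 34.8, 26.01, 35.2 and 37.6 CPM in early_MGC 1 to 5. It fell by 4.01 ± 0.47 (adjusted p = 1.3e-06), and it is the gene that carried most of the endothelial marker sum in early_MGC. The lymphatic growth factor VEGFC fell by 0.68 ± 0.21 (adjusted p = 0.018) and the guidance factor SEMA3A by 2.04 ± 0.44 (adjusted p = 0.0013), while the placental growth factor PGF rose by 2.49 ± 0.50 (adjusted p = 0.001), with 33.4 to 50.3 CPM in late_MGC 1, 2, 4 and 5 and 1.29 CPM in late_MGC 3, against 1.55 to 13.03 CPM in early_MGC. Of the insulin-like growth factor system, 2 of 11 tested genes rose (18.2%, against 8.3% of all genes) and 1 fell (9.09% against 8.49%) in both fits. Without late_MGC 3 alone 2 were higher and 4 lower, beside 11.7% and 12.4% of all genes. IGFBP4, a binding protein that holds the ligand back, was at 9.11, 9.19, 1.29, 9.25 and 9.2 CPM in late_MGC 1 to 5, against 1.6, 0.49, 0.12, 0.239 and 0.513 CPM in early_MGC 1 to 5. It rose by 4.05 ± 0.84 (adjusted p = 0.0014). The calls of PGF (highest adjusted p 0.065) and IGFBP7 (0.069) ended in 3 and 4 fits that left out a single library other than late_MGC 3. IGFBP7 fell by 1.41 ± 0.22 (adjusted p = 4.4e-05), and IGFBP6 was at -2.21 ± 0.36 (adjusted p = 8.6e-05) without late_MGC 3 but was not called with it (adjusted p = 0.089). STC1, a secreted glycoprotein, was at 5.77 to 8.7 CPM in late_MGC 1, 2, 4 and 5 and 913 CPM in late_MGC 3, against 72.6 to 242 CPM in early_MGC. Without late_MGC 3 its value was -4.46 ± 0.36 (adjusted p = 3.6e-09), and with it 0.08 (adjusted p = 0.97).

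Immediate early genes, which are switched on within minutes of a stimulus, formed the list with the most falls. Of 33 tested members 14 fell and none rose in both fits, beside 8.49% of all genes that fell, and the median was -2.32 without late_MGC 3 and -1.73 with it, against -0.004 and 0.05 over all genes tested. FOS was at 845, 287, 407, 15.1 and 308 CPM in late_MGC 1 to 5, against 1686, 1925, 1546, 1151 and 5124 CPM in early_MGC 1 to 5. The groups did not overlap, but both were wide, with late_MGC 4 lowest and early_MGC 5 highest. Its log2 fold change was -2.39 ± 0.80 without late_MGC 3 (adjusted p = 0.034) and -2.41 ± 0.70 with it (adjusted p = 0.02). The partner JUN was at 115, 122, 231, 20.7 and 73.8 CPM in late_MGC 1 to 5, against 319.8, 638, 349, 259.8 and 819.7 CPM in early_MGC 1 to 5, and fell by 2.32 ± 0.42 (adjusted p = 2.6e-04). JUNB was at 36.4, 8.7, 36, 1.44 and 19.9 CPM in late_MGC 1 to 5, against 118, 180.2, 113, 114 and 376 CPM in early_MGC 1 to 5, and fell by 3.18 ± 0.75 (adjusted p = 0.0043). JUND, which cells keep at a steadier level, fell by 1.63 ± 0.28 (adjusted p = 1.4e-04). ATF3, a stress-induced factor, was at 40.9, 5.14, 187, 1.5 and 10.1 CPM in late_MGC 1 to 5, against 300.1, 343, 265, 76.97 and 699.9 CPM in early_MGC 1 to 5. Its value was -4.24 ± 0.79 without late_MGC 3 (adjusted p = 5.8e-04) and -2.69 ± 0.84 with it (adjusted p = 0.03), and late_MGC 3 lay within the range of early_MGC. DUSP1, a phosphatase that ends MAP kinase signals, was at 92.2, 42.5, 291, 13.8 and 50.95 CPM in late_MGC 1 to 5, against 298, 392, 273, 172 and 926 CPM in early_MGC 1 to 5. ZFP36L1, an mRNA decay factor, was at 11.7, 14.9, 71.7, 10.9 and 13.7 CPM in late_MGC 1 to 5, against 58.5, 95.5, 52.1, 107 and 87.8 CPM in early_MGC 1 to 5. For both, late_MGC 3 lay inside the range of early_MGC and the 4 other late_MGC libraries below it. They fell by 2.80 ± 0.51 (adjusted p = 3.8e-04) and 2.53 ± 0.43 (adjusted p = 1.8e-04). The orphan receptor NR4A1 fell by 3.18 ± 0.67 (adjusted p = 0.0017), and IER2, FOSB, KLF4, CEBPD, MAFF and ZFP36 were also among the 14. The count rested in part on early_MGC 5, which had the highest CPM of FOS, JUN, JUNB, ATF3, DUSP1 and NR4A1 of all mural libraries. Without early_MGC 5, with late_MGC 3 kept, 7 of the 33 were lower and none higher. In the fits that left out any other library but late_MGC 3, 10 to 14 were lower, and without late_MGC 3 20 were lower. In a fit of the mural groups alone 8 were lower, and 17 in that fit without late_MGC 3. The 7 that lost their call without early_MGC 5 were FOS (adjusted p = 0.062), ATF3 (0.073), DUSP1 (0.066), CEBPD (0.053), MAFF (0.14), ZFP36 (0.05) and KLF4. KLF4 also lost it in 7 other fits that left out a single library, and ZFP36L1 in 5, with a highest adjusted p of 0.14 and 0.06. The mitochondrial share of early_MGC 5 was 12.5%, the lowest of its group.

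Chaperones went in both directions. HSPA5, the chaperone of the endoplasmic reticulum that marks the unfolded protein response, was at 1341, 1068, 1899, 828 and 1126 CPM in late_MGC 1 to 5, against 2747, 3087, 2590, 1626 and 6656 CPM in early_MGC 1 to 5. It fell by 1.41 ± 0.31 (adjusted p = 0.0014), although late_MGC 3 overlapped the lowest early_MGC library. The stress factor DDIT3 fell too, by 1.47 ± 0.46 (adjusted p = 0.024), with 27.2 to 67.95 CPM in late_MGC and 59.8 to 301 CPM in early_MGC, and early_MGC 5 was again highest for both. The cytosolic HSP90AB1 rose by 0.71 ± 0.18 (adjusted p = 0.0053) and HSP90AA1 by 0.51 ± 0.18 (adjusted p = 0.036), the mitochondrial HSPD1 by 0.67 ± 0.20 (adjusted p = 0.016), and the reticulum paralogue HSP90B1 by 0.65 ± 0.22 (adjusted p = 0.035). The calls of DDIT3, HSP90AB1, HSPD1 and HSP90B1 ended without 1 or more single libraries, with a highest adjusted p of 0.094, 0.051, 0.082 and 0.12. In total 5 of 16 heat shock genes rose (31.2%, against 8.3% of all genes) and 1 fell (6.25% against 8.49%) in both fits. The number higher dropped to 2 without late_MGC 4 or early_MGC 4, and to 1 in the mural groups alone (3 in that fit without late_MGC 3). Among 26 tested genes of apoptosis and the p53 response 4 rose and 4 fell (15.4% each, against 8.3% and 8.49% of all genes). In the mural groups alone 1 was higher and 5 were lower, and without late_MGC 3 4 and 8. BAK1, which opens the outer mitochondrial membrane, rose by 0.98 ± 0.29 (adjusted p = 0.015), and the nutrient stress genes SESN1 and SESN2 fell by 1.56 ± 0.28 (adjusted p = 1.7e-04) and 1.62 ± 0.25 (adjusted p = 3.5e-05).

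The genes of filopodia and actin, on which projections depend, were called in both fits at shares somewhat below those of all genes. Of 47 tested, 28 (59.6%) had a 95% interval within 1 log2 unit of 0 without late_MGC 3, against 40.2% of all genes. In both fits 3 rose and 3 fell (6.38% each, against 8.3% and 8.49% of all genes). The median was 0 to 2 decimals without late_MGC 3 and 0.28 with it. Without late_MGC 3 alone 4 were higher and 9 lower, beside 11.7% and 12.4% of all genes. MYO10, the motor that carries cargo to filopodial tips (ENSBTAG00000020126, chromosome 20, 56233771 to 56495596), was at 13.01, 21.4, 28.1, 17.2 and 13.8 CPM in late_MGC 1 to 5, against 32.04, 52.9, 39.4, 42.8 and 40.1 CPM in early_MGC 1 to 5. Every late_MGC library was below every early_MGC library. It fell by 1.22 ± 0.26 without late_MGC 3 (adjusted p = 0.0012) and by 1.08 ± 0.25 with it (adjusted p = 0.0041). WASF3, an activator of branched actin, was at 0.243, 1.39, 1.07, 0.24 and 0.712 CPM in late_MGC 1 to 5, against 4.94, 6.92, 6.65, 5.97 and 5.41 CPM in early_MGC 1 to 5, and fell by 3.12 ± 0.51 (adjusted p = 6.8e-05). CDC42EP5, an effector of CDC42, fell by 0.999 ± 0.37 (adjusted p = 0.049), with 0.601 to 2.78 CPM in late_MGC and 2.39 to 5.22 CPM in early_MGC, and lost its call in 4 fits that left out a single other library (highest adjusted p 0.075). FSCN1, which bundles filopodial actin, was at 1.08, 0.544, 30.2, 0.12 and 0.332 CPM in late_MGC 1 to 5, against 1.79, 5.53, 2.1, 5.01 and 5.55 CPM in early_MGC 1 to 5. It was called lower without late_MGC 3 (-2.69 ± 0.52, adjusted p = 4.4e-04) and not called with it (0.67 ± 0.88, adjusted p = 0.65). The kinase PAK1 was at 3.76, 4.29, 63.9, 3.48 and 2.94 CPM in late_MGC 1 to 5, against 17.5, 21.96, 21.6, 20.1 and 17.2 CPM in early_MGC 1 to 5. It behaved likewise, with -2.32 ± 0.24 (adjusted p = 1.4e-07) without late_MGC 3 and -0.35 ± 0.59 (adjusted p = 0.73) with it. The formin DAAM1, which nucleates straight actin filaments, was not called in either fit, at 0.02 ± 0.24 without late_MGC 3 (adjusted p = 0.96) and 0.49 ± 0.29 with it (adjusted p = 0.26). The members that rose were EZR, which ties actin to the membrane, at 0.85 ± 0.21 (adjusted p = 0.0047), CDC42EP3 at 1.62 ± 0.32 (adjusted p = 5.2e-04) and the branching subunit ACTR3 at 0.55 ± 0.18 (adjusted p = 0.03). For CDC42EP3 and ACTR3 late_MGC 3 was the highest library, at 62.8 and 598 CPM.

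Of 21 tested microtubule genes 3 rose (14.3%, against 8.3% of all genes) and 2 fell (9.52% against 8.49%). In the mural groups alone 1 was higher and 2 were lower, and in that fit without late_MGC 3 4 were higher and 3 lower. The kinesin KIF5B rose by 0.65 ± 0.19 (adjusted p = 0.012) and TUBB6 by 0.92 ± 0.28 (adjusted p = 0.017), while MAP7, a microtubule-associated partner of kinesin, was at 6.33, 11.4, 2.3, 8.41 and 6.83 CPM in late_MGC 1 to 5, against 28.1, 30.8, 17.6, 42.8 and 22.9 CPM in early_MGC 1 to 5, and fell by 1.70 ± 0.27 (adjusted p = 5.0e-05). Among gap and adherens junction genes, the connexin GJA1 was at 799, 1207, 392, 1228 and 1120 CPM in late_MGC 1 to 5, against 485, 672, 384, 853 and 443 CPM in early_MGC 1 to 5. It rose by 1.03 ± 0.24 (adjusted p = 0.003) without late_MGC 3 and by 0.82 ± 0.29 (adjusted p = 0.045) with it, and the groups overlapped. Its call with all libraries ended when any single library except late_MGC 3 or early_MGC 4 was left out (highest adjusted p 0.12). GJA5 fell by 3.25 ± 0.70 (adjusted p = 0.0014). GJA4, the connexin by which the oocyte side of the junction is built in the mouse, was at 0.104, 0.242, 11.5, 0.36 and 0.0949 CPM in late_MGC 1 to 5, against 2.96, 3.36, 3.3, 4.77 and 2.84 CPM in early_MGC 1 to 5, with -4.03 ± 0.71 without late_MGC 3 (adjusted p = 1.6e-04) and -0.54 ± 0.94 with it (adjusted p = 0.73). The cadherin CDH2, the main one of granulosa cells, was not called in either fit, at -0.23 ± 0.24 without late_MGC 3 (adjusted p = 0.52) and 0.00 ± 0.25 with it (adjusted p = 0.99). CDH1 was at 6.74 to 9.68 CPM in late_MGC 1, 2, 4 and 5 and 181 CPM in late_MGC 3, against 6.36 to 11.8 CPM in early_MGC, and its call with all libraries (2.47 ± 0.70, adjusted p = 0.017) came from late_MGC 3.

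Of 22 tested components of the basement membrane and matrix 6 fell (27.3%, against 8.49% of all genes) and 1 rose (4.55% against 8.3%) in both fits, with a median of -0.55 without late_MGC 3 and 0.09 with it. In the mural groups alone 2 were lower and none higher, and 6 were lower in that fit without late_MGC 3. COL18A1 was at 5.88, 19.8, 72.9, 8.35 and 8.68 CPM in late_MGC 1 to 5, against 57.04, 119, 74.5, 101.3 and 99.6 CPM in early_MGC 1 to 5. The heparan sulphate proteoglycan AGRN was at 3.3, 4.41, 24.5, 2.22 and 2.66 CPM in late_MGC 1 to 5, against 21.9, 36.8, 18.8, 39.6 and 30.6 CPM in early_MGC 1 to 5. Late_MGC 3 lay within the range of early_MGC for both. They fell by 2.98 ± 0.44 (adjusted p = 3.6e-05) and 3.11 ± 0.31 (adjusted p = 6.0e-08). MATN2 fell by 1.64 ± 0.23 (adjusted p = 1.3e-05). COL15A1 had no count in any late_MGC library, and 44 counts in early_MGC make it at least 15.8-fold higher there than a limit of 3 counts over late_MGC 1, 2, 4 and 5. The laminin LAMC1 rose by 0.43 ± 0.15 (adjusted p = 0.037). Of 17 tested proteases and inhibitors 1 rose (5.88%) and 4 fell (23.5%), against 8.3% and 8.49% of all genes. TIMP3, a matrix-bound inhibitor of metalloproteinases, was at 8.52, 7.25, 30.5, 4.09 and 7.59 CPM in late_MGC 1 to 5, against 129.5, 101.4, 136, 80.7 and 205 CPM in early_MGC 1 to 5. It fell by 4.07 ± 0.33 (adjusted p = 3.7e-09), and the groups did not overlap. CPE, a peptide-processing carboxypeptidase, was at 4.42, 8.34, 11.5, 2.94 and 3.32 CPM in late_MGC 1 to 5, against 40.1, 100.4, 40.3, 73.4 and 66.7 CPM in early_MGC 1 to 5, and fell by 3.63 ± 0.34 (adjusted p = 2.9e-08). SERPINE2, which blocks plasminogen activators, rose by 0.83 ± 0.25 (adjusted p = 0.016), with 1107 to 3181 CPM in late_MGC and 714 to 981 CPM in early_MGC. In the list of cumulus expansion and prostaglandins, the prostaglandin E synthase PTGES was at 5.01, 5.8, 0.321, 2.46 and 3.27 CPM in late_MGC 1 to 5, against 59.9, 31.5, 46.7, 28.9 and 39.9 CPM in early_MGC 1 to 5. It fell by 3.18 ± 0.52 (adjusted p = 1.2e-04), the only one of 11 tested called in both fits (9.09%, against 8.49% of all genes). The matrix proteoglycan VCAN was not called in either fit, at 0.38 ± 0.21 without late_MGC 3 (adjusted p = 0.19) and 0.14 ± 0.29 with it (adjusted p = 0.79).

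Genes of the cell cycle differed more clearly once late_MGC 3 was left out. In both fits 2 of 38 rose (5.26%, against 8.3% of all genes), the D-type cyclin CCND2 and the mitotic kinase AURKA. Without late_MGC 3 11 were higher and 1 lower, against 11.7% and 12.4% of all genes, with a median of 0.59. CCND2, the cyclin through which FSH drives granulosa division, was at 455, 565, 76.4, 654 and 665 CPM in late_MGC 1 to 5, against 266, 300.1, 281, 214 and 165 CPM in early_MGC 1 to 5. It rose by 1.37 ± 0.19 (adjusted p = 7.2e-06) without late_MGC 3 and by 1.09 ± 0.33 (adjusted p = 0.023) with it. AURKA was at 74.4 to 93.96 CPM in late_MGC 1, 2, 4 and 5 and 21.4 CPM in late_MGC 3, against 19.6 to 59.1 CPM in early_MGC. CCNB1, the cyclin of mitotic entry, was at 62.5 to 112 CPM in late_MGC 1, 2, 4 and 5 and 15.6 CPM in late_MGC 3, against 28.6 to 66.3 CPM in early_MGC, and was called only without late_MGC 3, at 1.01 ± 0.30 (adjusted p = 0.016). The shallowest library, early_MGC 4, had the lowest CPM of CCNB1 and AURKA in its group. With late_MGC 3 kept and another single library left out, 0 to 4 genes were higher, and the calls of AURKA and CCND2 ended in 7 and 3 of these fits, with a highest adjusted p of 0.12 and 0.068. Without late_MGC 3, early_MGC 4 and late_CC 3 the count of cell cycle genes was 12 higher and 1 lower.

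In the redox list 5 of 28 tested genes rose (17.9%, against 8.3% of all genes) and 2 fell (7.14% against 8.49%) in both fits. With late_MGC 3 kept and another single library left out, 3 to 6 were higher and 2 lower. GPX3, a secreted glutathione peroxidase, was at 71.1, 143, 6.48, 92.8 and 135 CPM in late_MGC 1 to 5, against 16.4, 17.3, 9.83, 6.44 and 18.6 CPM in early_MGC 1 to 5. MGST1, a membrane-bound glutathione transferase, was at 196, 82.3, 111, 118 and 115 CPM in late_MGC 1 to 5, against 36.7, 25.7, 35.5, 22.3 and 20.1 CPM in early_MGC 1 to 5. GPX3 in late_MGC 3 was as low as in early_MGC, while MGST1 was high in all 5 late_MGC libraries. They rose by 3.16 ± 0.47 (adjusted p = 4.4e-05) and 2.33 ± 0.29 (adjusted p = 2.8e-06). The extracellular dismutase SOD3 was at 1.08 to 14.8 CPM in late_MGC and 23.7 to 46.9 CPM in early_MGC. The quinone reductase NQO1 was at 0.803 to 2.23 CPM in late_MGC and 6.78 to 10.2 CPM in early_MGC. They fell by 3.53 ± 0.45 (adjusted p = 5.0e-06) and 2.43 ± 0.39 (adjusted p = 5.2e-05). Of 24 glycolysis genes 1 was up in both fits (4.17%, against 8.3% of all genes), the lactate carrier SLC16A1 (0.97 ± 0.25, adjusted p = 0.0054). Another 1 was down (4.17% against 8.49%), PFKM (-0.76 ± 0.23, adjusted p = 0.019). Of 20 tested genes of cyclic nucleotides 3 rose (15% against 8.3% of all genes). They were NPR2 (1.21 ± 0.35, lost in 7 fits that left out a single other library, with a highest adjusted p of 0.12), the receptor by which natriuretic peptide C of mural cells acts, NPR3 (5.33 ± 1.03), which clears that peptide, and the phosphodiesterase PDE8B (1.35 ± 0.31).

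**Figure D4:**
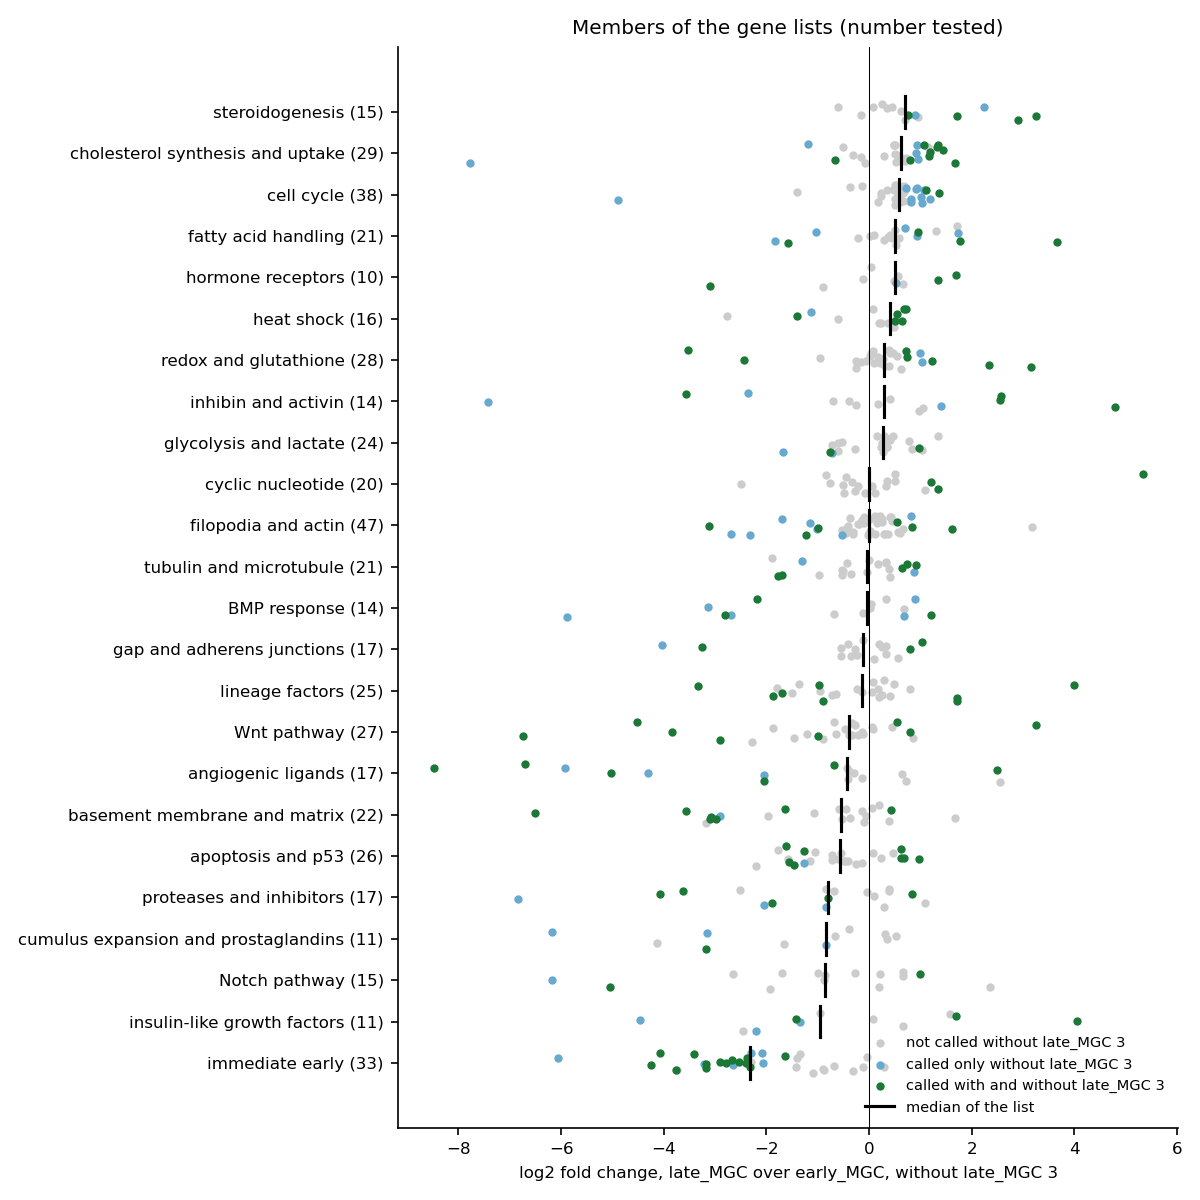
Log2 fold changes of late_MGC over early_MGC without late_MGC 3 for the tested members of 24 gene lists, 1 point per gene, with the list's median as a black bar and the number tested in brackets. The immediate early list has the lowest median (-2.32) and steroidogenesis the highest (0.69), while filopodia and actin genes lie around 0 with a tail of lower genes.

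The 12 largest rises among genes of at least 5 CPM included genes near 0 in early_MGC, such as NPR3, and genes well above it, such as INHBA, described above, at 30.2 to 109 CPM in early_MGC. The natriuretic peptide clearance receptor NPR3 was at 5.32, 9.31, 1.88, 7.93 and 8.21 CPM in late_MGC 1 to 5, against 0, 0, 0, 0 and 0.886 CPM in early_MGC 1 to 5. CSPG4, a transmembrane proteoglycan, was at 14.9, 26.8, 2.57, 35.5 and 36.3 CPM in late_MGC 1 to 5, against 1.73, 0.559, 0.479, 0.716 and 1.77 CPM in early_MGC 1 to 5. The metalloprotease subunit MEP1B was at 14.2, 16.01, 0.321, 20.9 and 17.3 CPM in late_MGC 1 to 5, against 1.91, 0.979, 0, 0 and 0.326 CPM in early_MGC 1 to 5. Both were low in late_MGC 3 and high in the other late_MGC libraries. PPP1R14A, an inhibitor of myosin phosphatase, was at 18.3, 16.9, 18.3, 21.8 and 24.8 CPM in late_MGC 1 to 5, against 0.864, 0.14, 1.38, 0.477 and 1.58 CPM in early_MGC 1 to 5. It was high in all 5, and rose by 4.62 ± 0.58 (adjusted p = 3.4e-06). The receptor tyrosine kinase KIT, known in the ovary for its place on oocytes and theca, was at 43.7, 53.5, 21.2, 20.9 and 42.6 CPM in late_MGC 1 to 5, against 5.37, 7.27, 3.06, 1.43 and 2.8 CPM in early_MGC 1 to 5. It rose by 3.48 ± 0.56 (adjusted p = 1.1e-04) and the groups did not overlap, while its ligand KITLG was at 2.78 to 5.17 CPM in late_MGC 1, 2, 4 and 5 and 52.3 CPM in late_MGC 3, against 13.01 to 33.05 CPM in early_MGC, with -2.04 ± 0.35 without late_MGC 3 (adjusted p = 1.3e-04) and -0.52 ± 0.56 with it (adjusted p = 0.56). The potassium channel KCNN1 (4.70 ± 0.64), MINAR2 (4.27 ± 0.78), the lysozyme LYSB (6.37 ± 1.17) and the glutathione transferase GSTA5 (3.64 ± 0.51) completed the 12, with INHBA, IGFBP4 and FABP3. For LYSB the 533 counts in late_MGC without late_MGC 3 stood against 6 in early_MGC, and for NPR3 612 against 19. LYSB and GSTA5 belong to families of near-identical copies that may share reads.

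The largest falls were those of genes with almost no reads in late_MGC, so that the fitted fold depends on the tool's prior count and the pooled ratio is given instead. GRHL3, a transcription factor of epithelial barriers (ENSBTAG00000019791, chromosome 2, 128563987 to 128600189), was at 0, 0.121, 0.107, 0 and 0 CPM in late_MGC 1 to 5, against 16.6, 22.4, 11.2, 17.2 and 16.3 CPM in early_MGC 1 to 5. With 2 counts over late_MGC 1, 2, 4 and 5 and 1268 in early_MGC, its pooled CPM was 683-fold higher in early_MGC (95% exact interval 189 to 5650). This interval and those that follow cover counting error only, not the spread between libraries. The dipeptidase DPEP1 was 254-fold higher in early_MGC (86.6 to 1230), the adhesion molecule CHL1 213-fold (82.9 to 784), the matrix phosphoglycoprotein MEPE 197-fold (76.7 to 726), the chemokine CXCL3 157-fold (53.3 to 763) and the calcium channel ITPR3 114-fold (44.2 to 420). MYH6 was at 0, 0.242, 1.45, 0.24 and 0.0949 CPM in late_MGC 1 to 5, against 18.1, 14.97, 17.6, 0 and 10.8 CPM in early_MGC 1 to 5, with no count in early_MGC 4, and MGC137030 also had none there. The kinase MYLK4, at 0 to 0.285 CPM in late_MGC and 3.7 to 18.3 CPM in early_MGC, was 107-fold higher in early_MGC (54.2 to 250). For GRHL3, DPEP1, CXCL3 and ITPR3 late_MGC 3 was as near to 0 as the others, with at most 0.214 CPM.

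Only SGK1 was called in both fits with opposite signs. SGK1, a kinase induced by steroids and serum (ENSBTAG00000004269, chromosome 9, 72305979 to 72418535), was at 1.53, 0.906, 658, 2.04 and 0.949 CPM in late_MGC 1 to 5, against 6.48, 6.29, 7.79, 2.03 and 9.41 CPM in early_MGC 1 to 5. With all libraries its value was 4.34 ± 1.42 (adjusted p = 0.038; 0.08 at most without a single early_MGC library), and without late_MGC 3 it was -2.06 ± 0.55 (adjusted p = 0.0079). Of the genes called only with all libraries, the largest shifts were those of CSRP3 and ANKRD1, muscle proteins of the sarcomere, with 1971 and 2029 CPM in late_MGC 3 and at most 3.19 and 2.94 CPM in the other late_MGC libraries, and of SPON2 (58.2 CPM in late_MGC 3), OLR1 (78.8), CYP26B1 (72.0) and MICALL2 (20.4). Of those called only without it, ANKRD55, RGCC, LOXL4, TGFBR2 and COL1A2 had no count in late_MGC 1, 2, 4 and 5 and TRIB1 had 4, whereas late_MGC 3 had 8.30 to 102 CPM of each. The genes with the highest level in late_MGC 3 relative to all other mural libraries also included MAP1LC3C (369 CPM), SCG3 (165), IL18 (120), SELP (116), TMEM26 (50.0), CREB3L1 (37.8), SPOCK2 (37.3) and FBLN2 (24.9), chosen by that ratio. The collagen-binding proteoglycan DCN was at 3.69, 3.2, 276, 2.22 and 2.47 CPM in late_MGC 1 to 5, against 58.9, 24.8, 10.6, 53.5 and 129.6 CPM in early_MGC 1 to 5. It was not called with all libraries (0.05 ± 1.095, adjusted p = 0.98) and was lower without late_MGC 3 (-4.06 ± 0.80, adjusted p = 9.9e-04). PDGFRA, a receptor of theca and stroma, was at 1.23 to 5.38 CPM in late_MGC 1, 2, 4 and 5 and 145 CPM in late_MGC 3, against 0 to 1.17 CPM in early_MGC, and rose in both fits, by 5.36 ± 1.19 with late_MGC 3 and 1.85 ± 0.55 without it.

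Where the stage effect of mural cells differed from that of cumulus cells was read from the interaction, the log2 fold change of late_MGC over early_MGC minus that of late_CC over early_CC. It was called for 4486 genes (31.4%) with all libraries and for 5138 (36.4%) without late_MGC 3. In both fits it was called with the same sign for 4229 genes (30%), positive for 2257 (16%) and negative for 1972 (14%). Of the 2367 genes called in the mural comparison by both fits, 1043 (44.1%) also had an interaction called in both. For 524 the rise and for 446 the fall was larger in mural cells or absent or opposite in cumulus cells, and for 24 and 49 the reverse held. The glutathione transferase GSTA5 averaged 419 ± 48.4 CPM in late_MGC without late_MGC 3 against 37.7 ± 25.4 CPM in early_MGC, and 15.1 ± 4.33 CPM in late_CC against 46.03 ± 30.2 CPM in early_CC (SD, n = 4 for late_MGC without late_MGC 3 and 5 for the other groups), an interaction of 5.24 ± 0.68 without late_MGC 3 (adjusted p = 8.0e-06) and 4.93 ± 0.99 with it (adjusted p = 8.7e-04). CSPG4 averaged 28.4 ± 9.95 CPM in late_MGC without late_MGC 3 against 1.05 ± 0.644 CPM in early_MGC, and 5.91 ± 2.55 CPM in late_CC against 3.43 ± 0.751 CPM in early_CC, an interaction of 4.09 ± 0.81. INHA averaged 2263 ± 336 CPM in late_MGC without late_MGC 3 against 423 ± 92.8 CPM in early_MGC, and 2476 ± 934 CPM in late_CC against 1309 ± 65.2 CPM in early_CC, and its interaction was 1.65 ± 0.33 without late_MGC 3 (adjusted p = 3.6e-04) and 1.33 ± 0.80 with it (adjusted p = 0.21). The interaction of INHBA was not called, at 0.08 ± 0.86 without late_MGC 3 (adjusted p = 0.96) and -0.23 ± 1.001 with it (adjusted p = 0.89), and INHBA averaged 7050 ± 4612 CPM in late_CC against 261 ± 64.1 CPM in early_CC. The interaction of NKD1 was not called either, at 0.78 ± 0.91 without late_MGC 3 (adjusted p = 0.53) and 0.65 ± 0.89 with it (adjusted p = 0.61). Without late_MGC 3, that of WT1 was 0.08 ± 0.39 and that of GREM1 0.77 ± 0.30. The 95% interval of the interaction lay within 1 log2 unit of 0 for WT1 (-0.73 to 0.88) but not for INHBA (-1.71 to 1.87).

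The filopodial motor MYO10 averaged 16.4 ± 3.86 CPM in late_MGC without late_MGC 3 against 41.5 ± 7.56 CPM in early_MGC, and 85.6 ± 13.9 CPM in late_CC against 54.6 ± 24.7 CPM in early_CC, an interaction of -1.88 ± 0.35 without late_MGC 3 (adjusted p = 1.9e-04) and -1.74 ± 0.36 with it (adjusted p = 6.9e-04). WASF3 (-2.66 ± 0.65), PAK1 (-2.61 ± 0.31) and FSCN1 (-2.62 ± 0.67) also had negative interactions without late_MGC 3. Of 47 tested filopodia genes 5 had a negative (10.6%, against 14% of all genes) and 8 a positive interaction (17% against 16%) in both fits. In the cell cycle list 29 of 38 had a positive (76.3%) and 1 a negative interaction (2.63%), among them CCNA2, with 42.9 ± 9.27 CPM in late_MGC without late_MGC 3 against 22.97 ± 9.15 CPM in early_MGC, and 7.79 ± 2.83 CPM in late_CC against 45.3 ± 9.52 CPM in early_CC, an interaction of 3.57 ± 0.41. In the redox list 12 of 28 were positive (42.9%) and none negative. Among the immediate early genes 9 of 33 were negative (27.3%) and none positive, with ZFP36L1 at -5.23 ± 0.59, NR4A1 at -4.81 ± 0.87 and JUN at -1.85 ± 0.54 (lost in 5 fits that left out a single library, with a highest adjusted p of 0.098), whereas FOS, at -0.11 ± 1.01, was not called. The adapter GRB7, which fell in mural cells, averaged 0.708 ± 0.311 CPM in late_MGC without late_MGC 3 against 6.02 ± 0.899 CPM in early_MGC, and 0.0519 ± 0.0713 CPM in late_CC against 12.4 ± 3.25 CPM in early_CC. Its mean was lower in late_CC too, and the interaction was positive at 4.85 ± 0.68. CD99 and the mitochondrial import subunit TIMM17A had interactions of 4.24 ± 0.48 and 4.06 ± 0.63, with lower means in late_CC than in early_CC and neither gene was called in both mural fits. JAG2, a Notch ligand, averaged 11.3 ± 8.52 CPM in late_CC against 1.15 ± 0.559 CPM in early_CC and was at most 0.321 CPM in late_MGC and 0.839 CPM in early_MGC. Its interaction was -9.44 ± 2.02. The alpha globins HBA and HBA1, near-identical copies, and PTPRT, SERTAD4 and CCDC184 likewise had negative interactions with a mean of at most 1.11 CPM in either mural group. Those of HBA, HBA1 and PTPRT rested on single early_MGC libraries, since the calls ended without early_MGC 5 (adjusted p = 0.96), early_MGC 1 (0.084) and early_MGC 2 (0.94). PAG11, a pregnancy-associated glycoprotein of a large family, had the largest positive interaction (7.40 ± 2.28) among genes of at least 5 CPM in any group. It was lost without late_MGC 1 (adjusted p = 0.091). In late_MGC PAG11 averaged only 0.335 CPM, and 0.418 CPM without late_MGC 3.

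**Figure D5:**
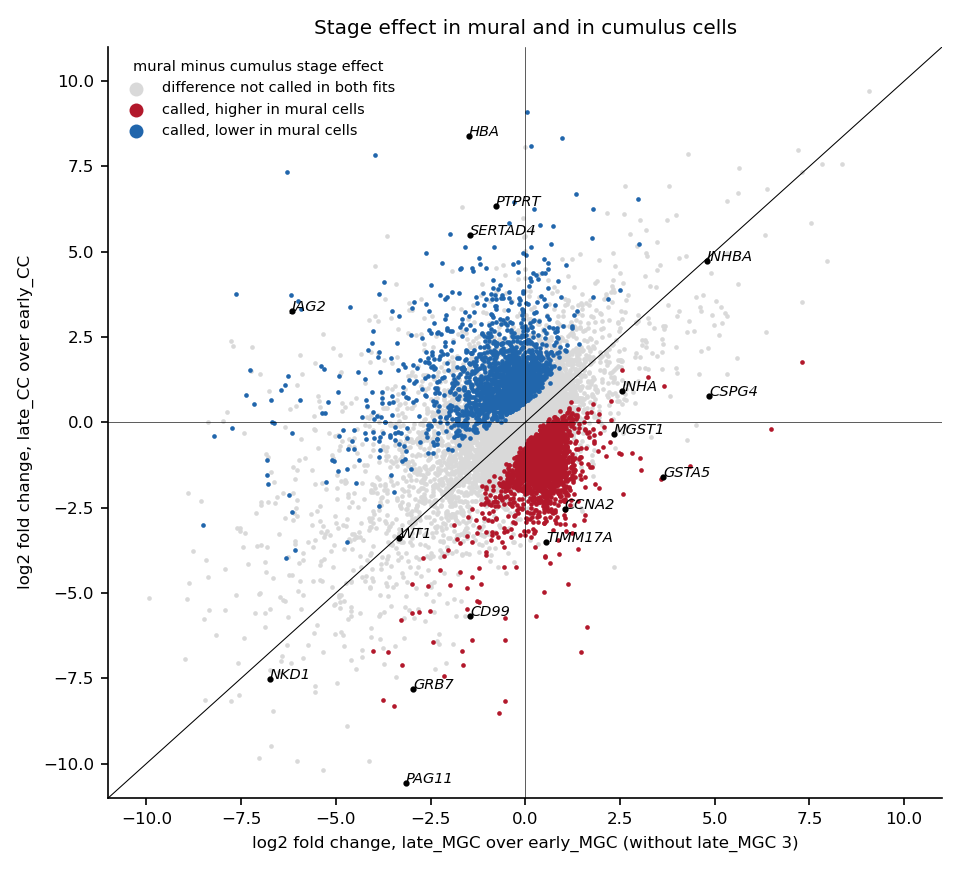
Log2 fold change of late_MGC over early_MGC without late_MGC 3 (horizontal axis) against that of late_CC over early_CC (vertical axis), 1 point per gene, with genes whose interaction was called in both fits coloured by sign. INHBA, NKD1 and WT1 lie near the diagonal of equal change, GSTA5 and CSPG4 to its right, and HBA, JAG2 and PTPRT to its left.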

How the data were processed

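The values used are raw read counts for each gene in all 24 libraries, in the table as deposited, with coordinates and exon length per gene. Per the file headers the authors made it with featureCounts 2.0.0 on an Ensembl 105 annotation of ARS-UCD1.2, with no strand option, so overlapping and antisense genes cannot be told apart. The submitters' processing notes also name fastp 0.20.0, HISAT2 2.1.0 and SAMtools 1.10. Total counts of the mural libraries ran from 8379801 to 28757749, and no pair of libraries within a group differed as little as sampling noise. A column of reads with no library was not used (1 column). Gene names were given by position against the RefSeq table of ARS-UCD2.0 (reciprocal best overlap of at least 0.5 of the union): 20455 of 27607 genes, and 88.4% of those with a mean of at least 1 CPM. With positions shifted by 1000000 bases, 8.22% of these still got a name, so a small share may be wrong. INHBA, JAG2, AMHR2, PTPRT and PDGFB had overlaps of 0.556 to 0.726.

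Counts were tested with edgeR 4.0.16 (R 4.3.3) by a quasi-likelihood fit of all 24 libraries by group, with TMM scaling, filterByExpr and Benjamini-Hochberg adjustment over all genes tested, and a call at an adjusted p under 0.05. The standard error is the log2 fold change divided by the root of the F statistic. CPM is the count divided by the library's total, and TPM also by exon length. The fit was also run on counts simulated from its own fitted means and spread, after the fits of the real counts, and that outcome is not given here. Named genes are the 12 largest rises and falls called in both fits with at least 5 CPM, up to 6 members per list called in both fits, those that depend most on late_MGC 3, 6 interactions in each direction, and a set listed by name. A further 28 genes, mostly of the lists (CCNA2, CCNB1, CEBPD, DDIT3, FDPS, FOS, FOSB, FSTL3, GSK3B, HSD17B1, IER2, IGFBP6, JUNB, KITLG, KLF4, KRT18, KRT8, LAMC1, LUM, NR4A1, NSDHL, PAK1, PLIN2, SOAT1, STC1, TOX, WNT11, ZFP36), and the interactions of genes of the mural comparison were chosen after their values were seen. The compared groups, members and lists were all chosen with earlier results of these data known. Alternatives were leaving out libraries, fitting the mural groups alone, other scaling and filters, DESeq2 1.42.0, limma-voom (limma 3.58.1) and an adjusted p under 0.01. The block by the letter ending each column name, and those that combine another tool or the mural groups alone with leaving out late_MGC 3, were added after seeing the data. A few genes that the rule names are not reported here.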

Additional observations from a re-analysis of the deposited data

Results flagged for a closer look

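There were 332 sets of 5 libraries, 1 for each gene named in the mural comparison and each mural group. In 68 of them a library stood apart by Dixon's test at the 95% level. The test sets a library's gap to its nearest neighbour against the range of the group. Chance alone gives about 1 in 20 such sets, and the genes are not independent. The count cannot be set against that rate, since late_MGC 3 was set apart beforehand and some genes were chosen by their values. Of the 68, 50 were cases of late_MGC 3 and 10 of early_MGC 5.

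Late_MGC 3 was far above the other 4 late_MGC libraries with 3181 CPM of SERPINE2, 2829 CPM of KRT8, 2137 CPM of KRT18, 1621 CPM of LUM, 947.6 CPM of IGFBP7, 912.9 CPM of STC1, 690.5 CPM of PLIN2, 658.5 CPM of SGK1, 597.7 CPM of ACTR3, 588.3 CPM of POSTN, 471.0 CPM of IGFBP5, 318.3 CPM of TUBB6, 305.8 CPM of HSD3B1, 291.3 CPM of DUSP1, 276.1 CPM of DCN, 249.6 CPM of CYP11A1, 231.9 CPM of SCAP, 198.0 CPM of FSTL3, 186.6 CPM of ATF3, 181.2 CPM of CDH1, 145.1 CPM of PDGFRA and 123.2 CPM of STAR. At lower levels, it stood above them with 91.8 CPM of SCARB1, 74.03 CPM of DAAM1, 72.9 CPM of COL18A1, 71.7 CPM of ZFP36L1, 63.9 CPM of PAK1, 62.8 CPM of CDC42EP3, 57.9 CPM of DKK3, 52.3 CPM of KITLG, 48.1 CPM of HES1, 34.4 CPM of IGFBP6, 30.5 CPM of TIMP3, 30.2 CPM of FSCN1, 24.5 CPM of AGRN and 21 CPM of ACVR1. At the lowest levels it did so with 17.9 CPM of MEIS2, 11.5 CPM of GJA4, 10.98 CPM of PDGFB, 5.46 CPM of MAFF, 2.84 CPM of HEYL, 1.45 CPM of MYH6, 0.375 CPM of CHL1 and 0.0536 CPM of SEMA3E. In this library 3 counts are 0.161 CPM, so the value of SEMA3E lies below that floor. It was far below them with 83.02 CPM of FST, 62.3 CPM of SOAT1, 21.4 CPM of AURKA, 10.6 CPM of FSHR, 8.20 CPM of GSTA5 and 1.29 CPM of IGFBP4. The steroidogenic enzymes CYP11A1 and HSD3B1, the keratins KRT8 and KRT18 and LUM, DCN, POSTN and PDGFRA of the theca and stroma list were among those far above, and the granulosa genes FSHR and FST among those far below. The theca and stroma list did not move as a whole, since INSL3 was at 1.88 CPM in late_MGC 3, against 190 to 349 CPM in the other late_MGC libraries.

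Late_MGC 1 was far above its group with 0.139 CPM of MGC137030, where 3 counts are 0.104 CPM. Late_MGC 2 was far above its group with 3.32 CPM of FLT1. Late_MGC 4 was far below it with 3.19 CPM of SESN2. Late_MGC 5 was far above its group with 0.285 CPM of MYLK4. Early_MGC 1 was far above its group with 1.6 CPM of IGFBP4 and 0.123 CPM of LHX2, the latter below 3 counts (0.185 CPM in that library). Early_MGC 4 was far above its group with 4.77 CPM of GJA4 and far below it with 26.9 CPM of FDX1. Early_MGC 5 was far above its group with 11.8 CPM of CDH1, 538.3 CPM of CEBPD, 5124 CPM of FOS, 188.3 CPM of ID1, 375.8 CPM of JUNB, 212.8 CPM of KLF4, 26.6 CPM of MAFF, 0.886 CPM of NPR3, 360.9 CPM of PLIN2 and 340.9 CPM of ZFP36. Early_MGC 5 thus held the highest values of immediate early genes, as in the levels given above.

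The 18 interactions listed next, between stage and mural or cumulus cells, were called by the edgeR fit both with and without late_MGC 3. They are a selection, and those of other named genes are not listed here. Of the mural calls of both fits, 1043 (44.1%) had such an interaction. Without late_MGC 3 the difference of log2 fold changes was positive for PAG11 (7.40), GSTA5 (5.24), GRB7 (4.85), CD99 (4.24), CSPG4 (4.09), TIMM17A (4.06) and CCNA2 (3.57), and negative for HBA (-9.87), JAG2 (-9.44), HBA1 (-9.05), PTPRT (-7.14), SERTAD4 (-6.96), CCDC184 (-6.36), MYO10 (-1.88), WASF3 (-2.66), ZFP36L1 (-5.23), NR4A1 (-4.81) and JUN (-1.85). Where a group held few or no counts, as for JAG2, HBA, HBA1 and PTPRT in mural cells, the fitted size depends on the prior count and is no measure of the true fold.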

How the results depend on the processing

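The mural comparison called 2725 genes, 1396 higher and 1329 lower. Leaving out 1 library at a time gave 2093 to 3396 calls (1011 to 1654 higher, 1019 to 1742 lower), the most without late_MGC 3. The mural groups alone gave 1612, of which 679 were higher, and 3147 (1382 higher) without late_MGC 3, and genes of at least 10 CPM gave 1514 (818 and 696), where fewer genes were tested. Limma-voom with library weights gave 4750 (2372 and 2378), the cause of which was not tested, and an adjusted p under 0.01 gave 1305 (607 and 698). DESeq2 without late_MGC 3 called 2223 lower. The interaction, with 4486 calls, ranged over 3826 to 5138 (2077 to 2591 positive, 1749 to 2547 negative) with 1 library left out, gave 2679 (1544 and 1135) at an adjusted p under 0.01, and 3139 negative with DESeq2 without late_MGC 3. Scaling by total counts in place of TMM moved the median log2 fold change of all genes by -0.096 with all libraries and by -0.134 without late_MGC 3. Of 139 named mural results called in both fits, 74 held their call in all alternatives run, 65 lost it in at least 1, and 0 changed sign. The mean of late_MGC over 5 and over 4 libraries differed by over 1.5 times for 72 of 197 named genes, and the median for 12.

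The results that changed sign did so where late_MGC 3 was left out or given less weight, and SGK1, TRIB1 and STC1 also with limma-voom on all libraries. Their log2 fold changes, late_MGC over early_MGC, were as follows. With 1 library left out at a time, the lowest being that without late_MGC 3, the values ran over ANKRD55 -7.64 to 3.61, COL1A2 -7.23 to 1.75, CSRP3 -0.41 to 8.47, CYP26B1 -0.78 to 7.06, DCN -4.06 to 0.51, FSCN1 -2.69 to 0.98, FSCN1 (interaction) -2.62 to 1.05, FSTL3 -2.35 to 1.18, IGFBP5 -1.34 to 3.25, KRT18 -3.21 to 4.70, KRT8 -2.99 to 2.56, LOXL4 -6.61 to 3.72, MICALL2 -1.38 to 9.32, OLR1 -1.82 to 6.42, RGCC -7.72 to 3.86, SGK1 -2.06 to 4.66, SPON2 -3.97 to 8.03, STC1 -4.46 to 0.39, TGFBR2 -7.42 to 1.54, TRIB1 -6.97 to 1.79. Without late_MGC 3, early_MGC 4 and late_CC 3, ANKRD55 -7.10, COL1A2 -7.22, CSRP3 -0.57, CYP26B1 -1.01, DCN -4.00, FSCN1 -2.51, FSTL3 -2.44, IGFBP5 -1.49, KRT18 -3.44, KRT8 -3.18, LOXL4 -6.37, OLR1 -2.08, RGCC -8.07, SGK1 -2.26, SPON2 -4.19, STC1 -4.30, TGFBR2 -7.14, TRIB1 -7.18, and -2.18 for the interaction of FSCN1. With limma-voom and library weights, ANKRD55 -4.40, CSRP3 -0.51, CYP26B1 -1.02, DCN -3.55, FSCN1 -2.94, FSTL3 -2.27, IGFBP5 -1.13, KRT18 -2.97, KRT8 -2.72, OLR1 -1.28, RGCC -3.64, SGK1 -2.03, SPON2 -1.01, STC1 -4.19, TGFBR2 -4.53, TRIB1 -6.38, and -2.75 for the interaction of FSCN1. In the mural groups alone without late_MGC 3, ANKRD55 -7.42, CSRP3 -0.47, DCN -4.12, FSCN1 -2.76, FSTL3 -2.41, IGFBP5 -1.40, KRT18 -3.27, KRT8 -3.05, SGK1 -2.12, STC1 -4.52, TGFBR2 -7.22, TRIB1 -7.00. With DESeq2 without late_MGC 3, ANKRD55 -7.04, CSRP3 -0.45, CYP26B1 -0.81, DCN -4.13, FSCN1 -2.76, FSTL3 -2.40, IGFBP5 -1.39, KRT18 -3.25, KRT8 -3.04, LOXL4 -6.01, MICALL2 -1.58, OLR1 -1.91, RGCC -7.07, SGK1 -2.12, SPON2 -3.07, STC1 -4.51, TGFBR2 -6.81, TRIB1 -7.17, and -2.69 for the interaction of FSCN1. With limma-voom without late_MGC 3, ANKRD55 -4.93, CSRP3 -0.84, CYP26B1 -1.21, DCN -3.64, FSCN1 -2.81, FSTL3 -2.30, IGFBP5 -1.36, KRT18 -3.25, KRT8 -2.88, MICALL2 -0.44, OLR1 -1.78, SGK1 -2.15, SPON2 -1.60, STC1 -4.33, TGFBR2 -5.01, TRIB1 -7.30, and -2.64 for the interaction of FSCN1. With limma-voom, SGK1 -0.34, STC1 -2.94, TRIB1 -5.05. The late_MGC columns carry no replicate number. With the letter at the end of each column name as a replicate block, added after seeing the data, 2896 genes were called (1449 higher, 1447 lower), and 4764 interactions. Deviations from the group means of late_MGC and early_MGC libraries of the same letter correlated at -0.086 to 0.206. Only that of letter A was highest for its own letter. With so few libraries these values cannot decide whether those of 1 letter share a source. The share of promoters with a motif was not run, since no sequence was at hand. With 5 libraries a group, depth limits genes under about 1 CPM, where a library of 8379801 counts has few reads.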

Other observations

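Per exon length, as TPM, serglycin (SRGN), a proteoglycan of secretory granules, was the most abundant nuclear-encoded gene of late_MGC without late_MGC 3, at 19510 ± 4550 TPM, against 9162 ± 4170 TPM in early_MGC (SD, n = 4 and 5). The prolyl isomerase PPIA was at 13360 ± 3070 TPM in late_MGC without late_MGC 3 and 9405 ± 2660 TPM in early_MGC. The glutathione transferase GSTA1, which has near-identical copies among which reads can be split, was at 8631 ± 2050 TPM in late_MGC without late_MGC 3 and 6296 ± 1890 TPM in early_MGC. The actin-binding thymosin TMSB10 ran the other way, at 7206 ± 916 TPM in late_MGC without late_MGC 3 and 12150 ± 2010 TPM in early_MGC. Most of the other leading genes encoded ribosomal proteins, such as RPS15 at 6869 ± 219 TPM in late_MGC without late_MGC 3 and 6866 ± 676 TPM in early_MGC. The list was taken by rank, and the values are a description.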
